A study of Pyrocoelia pectoralis with 6 samples.

Results

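Cytochrome P450 genes of families 6 and 9 were described in the luminous organ and the non-luminous organ of the firefly Pyrocoelia pectoralis. The genes were taken by description, as every gene whose description named a cytochrome P450 of family 6 or 9, without regard to its level. This gave 125 of the 12533 genes of the deposited table, out of 197 genes described as a cytochrome P450 of any family. Family 6 had 73 of them (46 in subfamily 6A, 3 in 6J, 23 in 6K and 1 in 6L), and family 9 had 52, all described as CYP9E2. The study sequenced messenger RNA of male fireflies in 6 libraries, 3 for each organ, of which the luminous one makes the firefly's light. No treatment, age or genotype is named in the labels, and they do not describe the non-luminous organ. Below, L1 to L3 are luminous replicates 1 to 3 and N1 to N3 non-luminous replicates 1 to 3, and values are listed in that order. Nothing in the labels says that the replicates were separate animals or pools, and p-values therefore speak only of how far these libraries spread, in part perhaps for technical reasons.

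Cytochrome P450 enzymes are heme proteins that insert 1 oxygen atom into a substrate, using electrons passed on by a reductase or by cytochrome b5. In insects, families 6 and 9 belong to the large clan whose members oxidise plant toxins, insecticides and some hormones and fatty acids, mostly in midgut, fat body and Malpighian tubules. These families are known for many near copies that lie side by side in the genome. The names in the deposited table are those of proteins known from other species: CYP6A1 from the house fly, other 6A names from Drosophila, and CYP6J1, CYP6K1, CYP6L1 and CYP9E2 from the German cockroach. A shared name therefore does not make 2 genes orthologs, and each gene is given with its identifier. How reads were divided between near-identical copies is not known, so values of close copies are uncertain relative to each other.

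Levels are given in FPKM, read numbers corrected for gene length and sequencing depth, which allows levels to be compared between genes. Library totals lay between 18.04 and 20.42 M reads. The libraries differed by label in RI129_003463, described as luciferin 4-monooxygenase (luciferase). It stood at 532, 374 and 292 FPKM in L1, L2 and L3 and at 0.322, 0.595 and 0.505 FPKM in the non-luminous replicates. Another gene of this description, RI129_011076, went the other way, at 6.35, 7.45 and 4.49 FPKM against 54.8, 24.2 and 50.6 FPKM. Differences below are luminous minus non-luminous means of log2(FPKM + 1), a scale that understates the change of low genes. They were tested with limma over the 9863 genes that averaged 1 FPKM or more across libraries, and a gene was called at an adjusted p under 0.05. Of 31 genes described as luciferin 4-monooxygenase, 21 were tested, of which 12 were lower in the luminous organ and 2 higher. These were 57.1% and 9.5%, against 17.0% and 9.63% of all tested genes. In whole organs, fewer cells of a type and less RNA per cell cannot be told apart, nor can either be told apart from the tissues that each sample held.

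More of these P450 genes were lower in the luminous organ than higher. Of the 93 genes that passed the filter on low values, 53 were lower, where limma called 17.0% of all tested genes lower, and 3 were higher, where it called 9.63% higher. The other 37 did not pass the test. At least 2-fold differences were called for 46 lower genes, against 10.3% of all tested genes, and for 2 higher genes, against 3.72%. All 3 luminous libraries lay below all 3 non-luminous libraries for 61 of the 93 genes, against 28.7% of all tested genes, and above them for 6, against 17.4%. The median log2 difference was -1.08, with quartiles of -1.65 and -0.37, and that of all tested genes was -0.09.

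The count of calls moved when single libraries were left out, which also lowers the power of the test. It was 29 lower genes without L3, and 32, 30 and 25 without N1, N2 and N3. In the same fits, 1022, 979, 1020 and 757 of all tested genes were called lower. The higher count of the P450 genes was 6 without L1, 2 without L2 and 1 without any other library. Over all tested genes it was 954, 920 and 584 without L1, L2 and L3, and 553, 557 and 362 without N1, N2 and N3. Counts below with a library left out are to be read beside these. The median of the 93 genes lay between -1.37 and -0.99 with any 1 library left out. Of the 53 lower genes, 24 were called under every one of the 16 alternatives that tested them, and of the 3 higher genes 1 was. Genes averaging under 5 FPKM were not tested at the minimum of 5 FPKM. After quantile normalization, limma called 44 of the 93 genes lower and 5 higher, and of all tested genes 1272 lower and 1480 higher, against 1676 and 950 with the values as deposited.

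**Figure D1:**
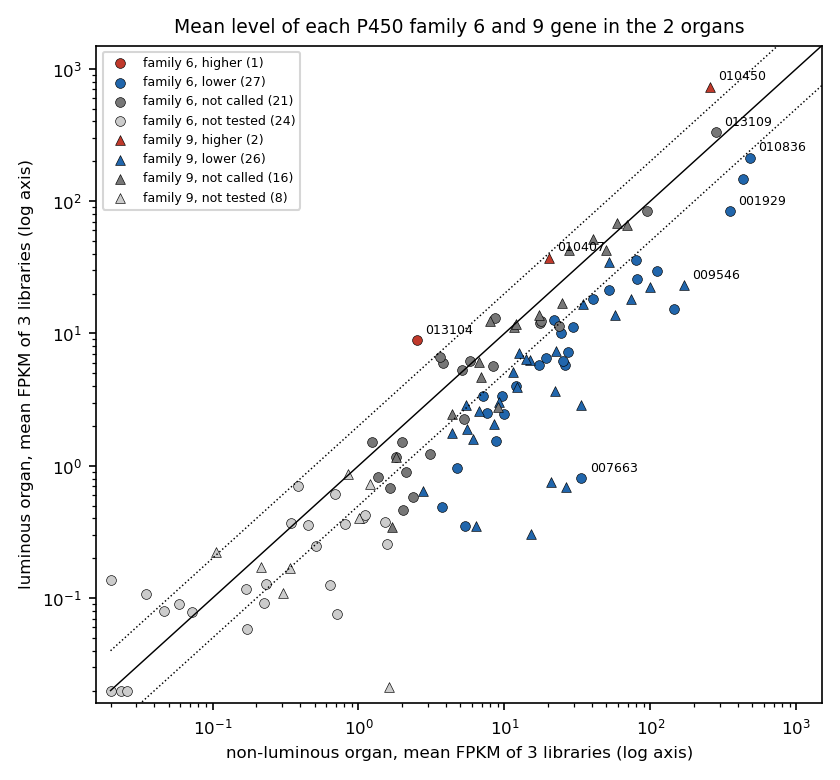
Mean FPKM of each of the 125 genes in the non-luminous organ (horizontal log axis) and the luminous organ (vertical log axis), 3 libraries each; means under 0.02 FPKM are drawn at 0.02. Circles are family 6, triangles family 9, colours give the limma call, the solid line marks equal means and the dotted lines a 2-fold ratio. Most points above 1 FPKM lie under the solid line, and the 3 genes called higher lie above it, labelled by the last 6 digits of their identifiers with other genes named in the text.

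In sum, the 125 genes took 0.24, 0.37 and 0.34% of all FPKM in L1, L2 and L3 and 0.49, 0.47 and 0.50% in the non-luminous replicates. Their summed level was 1903, 2870 and 2767 FPKM in the luminous libraries and 3841, 3788 and 4218 FPKM in the non-luminous libraries. The organs did not overlap, and the luminous mean was 2514 ± 531 FPKM against 3949 ± 234 FPKM (SD, n = 3). The 2 families differed in this sum. Family 6 stood at 863, 1647 and 1075 FPKM in the luminous libraries and at 2365, 2574 and 2769 FPKM in the non-luminous ones, without overlap. Family 9 stood at 1040, 1224 and 1693 FPKM against 1477, 1213 and 1449 FPKM, and the organs overlapped. Family 6 made up 38.8 to 57.4% of the summed level in the luminous organ and 61.6 to 68.0% in the non-luminous organ.

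The family 9 sum turned on 1 gene. Without RI129_010450, the most abundant family 9 gene, the other 51 genes had a luminous sum of 586 ± 45.2 FPKM and a non-luminous sum of 1122 ± 189 FPKM (SD, n = 3). The libraries then stood at 624, 597 and 536 FPKM against 1181, 911 and 1275 FPKM, and no longer overlapped. Per gene, both families were lower at a similar median: -1.21 over 49 tested genes of family 6 and -1.0 over 44 of family 9, a difference that was not tested.

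**Figure D2:**
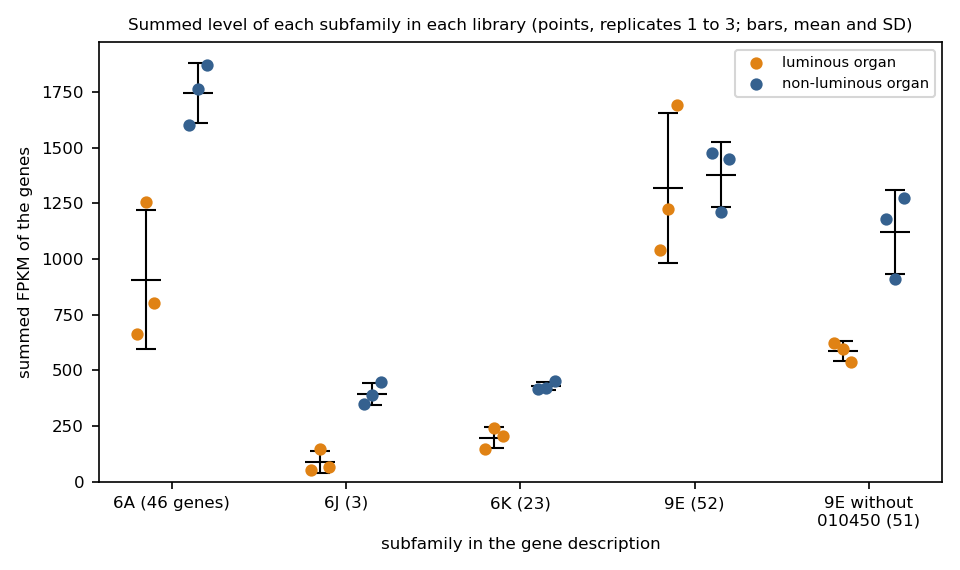
Summed FPKM (vertical axis) of subfamilies 6A, 6J, 6K and 9E, and of 9E without RI129_010450, in each library; points are replicates 1 to 3 of the luminous and the non-luminous organ, and bars give the mean and SD. The organs overlap for 9E as a whole and in none of the other sets drawn, with 9E without RI129_010450 at 536 to 624 FPKM against 911 to 1275 FPKM.

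The same 5 genes headed both organs, in another order. In the luminous organ they were RI129_010450 (CYP9E2, 733 ± 382 FPKM), RI129_013109 (CYP6A1, 332 ± 20.1), RI129_010836 (CYP6A2, 213 ± 122), RI129_010842 (CYP6A2, 146 ± 97.3) and RI129_001929 (CYP6J1, 84.1 ± 45.98; SD, n = 3 throughout). In the non-luminous organ the order was RI129_010836 (482 ± 29.3 FPKM), RI129_010842 (429 ± 36.6), RI129_001929 (349 ± 41.6), RI129_013109 (281 ± 33.1) and RI129_010450 (257 ± 72.6). In the luminous order every pair of neighbours overlapped within 1 SD. In the non-luminous order all did except RI129_010842 and RI129_001929, which were narrowly apart. These 5 genes carried 60.0% of the summed level in the luminous organ and 45.6% in the non-luminous organ. The rest were spread over many weaker genes: the number of genes at 10 FPKM or more was 28, 37 and 34 in the luminous libraries and 52, 52 and 58 in the non-luminous ones.

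**Figure D3:**
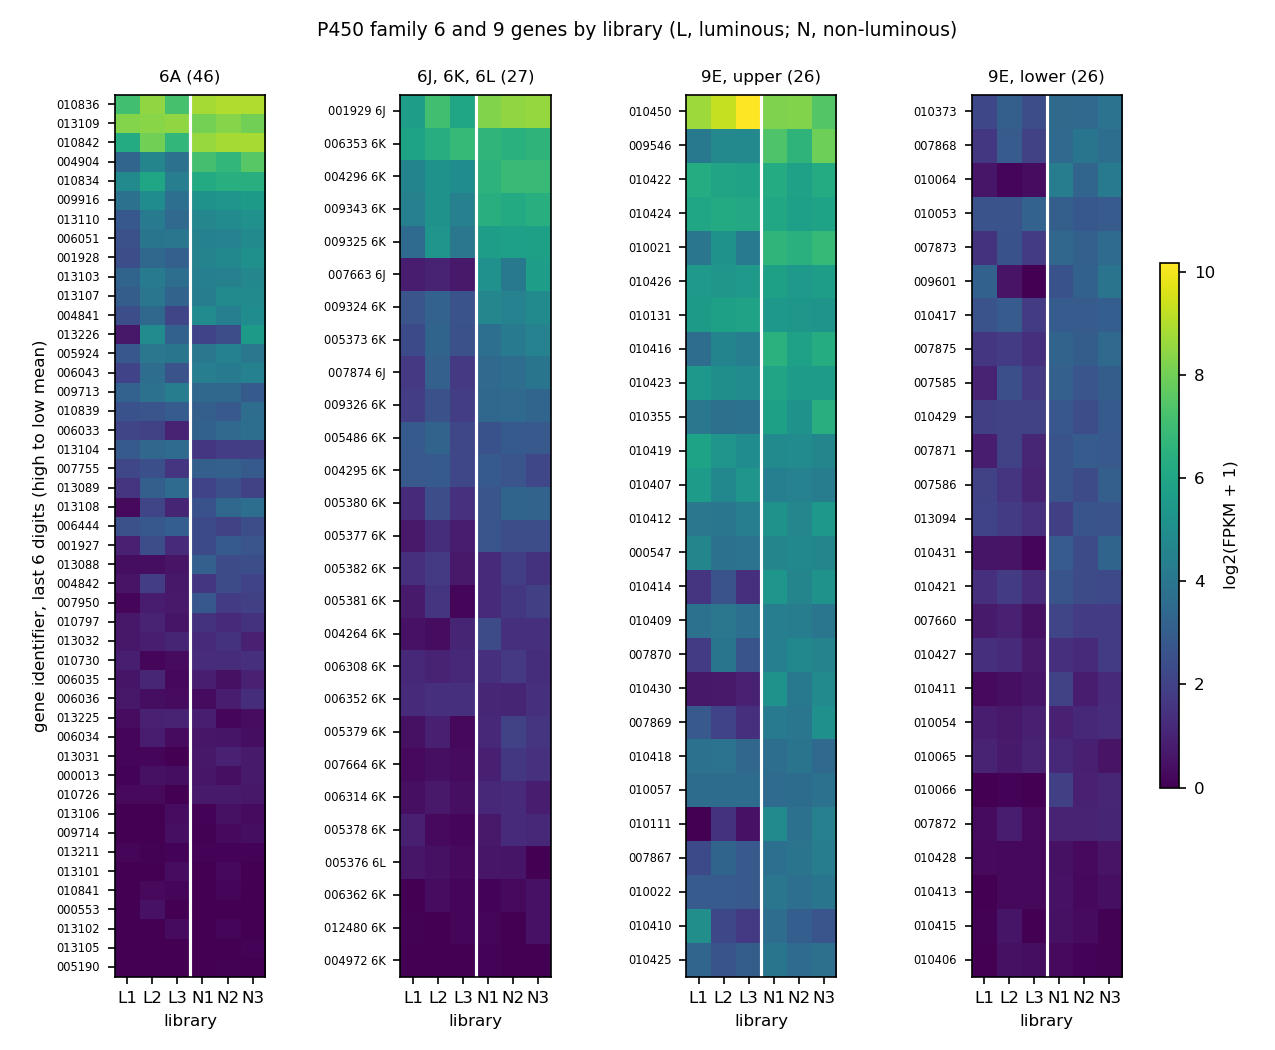
Level of all 125 genes as log2(FPKM + 1) (colour scale) in the 3 luminous libraries (L1 to L3) and the 3 non-luminous libraries (N1 to N3), grouped by subfamily and ordered from high to low mean; the 52 CYP9E2 genes are drawn in 2 columns of 26. Genes are labelled by the last 6 digits of their identifiers. RI129_010450 at the head of 9E is brighter in the luminous libraries, and most genes under it, and RI129_007663 (6J), are darker there.

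Of 44 tested CYP9E2 genes, 2 were higher in the luminous organ (4.5%) and 26 lower (59.1%). The shares of all tested genes were 9.63% and 17.0%. RI129_010450 was read at 415, 627 and 1157 FPKM in the luminous libraries and at 296, 303 and 174 FPKM in the non-luminous ones. All luminous libraries lay above all non-luminous ones, with L3 the highest and a wide spread within the organ. The log2 difference was 1.42 (SE 0.38, limma adjusted p = 0.0311). The call was lost when any 1 library except L1 was left out, and also with all libraries in the fit with a replicate block. Over all alternatives the adjusted p ran from 0.0085 to 0.109. RI129_010450 made up 21.8, 21.8 and 41.8% of the summed level of the 125 genes in the luminous libraries. It ranked 157 among all genes of that organ.

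The second higher gene, RI129_010407, stood at 47.2, 25.8 and 39.1 FPKM in the luminous libraries and 19.99, 21.6 and 19.0 FPKM in the non-luminous ones. The organs did not overlap, but L2 lay close to the non-luminous level. It differed by 0.82 (SE 0.22, limma adjusted p = 0.0301). The call was lost without L3, N1, N2 or N3 and in the fit with a replicate block (0.00421 to 0.103 over all alternatives).

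The lower CYP9E2 genes held 8 of the 12 largest differences of both families. RI129_010430 was at 0.563, 0.614 and 0.893 FPKM in the luminous libraries and at 35.2, 16.1 and 27.4 FPKM in the non-luminous ones (log2 difference -3.95, SE 0.29, limma adjusted p = 0.000441). RI129_010111 had no read in L1 and stood at 1.83 and 0.415 FPKM in replicates 2 and 3, against 28.6, 13.0 and 20.6 FPKM (-3.71, SE 0.43, adjusted p = 0.00221). RI129_010064 was at 0.549, 0.0951 and 0.273 FPKM against 18.6, 8.92 and 17.9 FPKM (-3.58, SE 0.31, adjusted p = 0.00084). In these 3 genes the luminous organ was close to silent, below 2 FPKM in every library, where the non-luminous libraries lay between 8.92 and 35.2 FPKM.

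Other CYP9E2 genes fell from a higher level without reaching this floor. RI129_009546, the second most abundant CYP9E2 gene of the non-luminous organ, stood at 16.3, 26.7 and 26.7 FPKM against 165, 96.1 and 245 FPKM (log2 difference -2.74, SE 0.34, limma adjusted p = 0.00277). RI129_010021 stood at 14.9, 35.5 and 16.8 FPKM against 98.8, 86.9 and 113 FPKM (-2.20, SE 0.30, adjusted p = 0.00369). The organs were far apart for both, with L1 the lowest library. RI129_010414 (-3.21), RI129_010431 (-2.40) and RI129_007869 (-2.34) completed the 8, and each of these genes was called under every alternative that tested it. RI129_010431 was too weak to be tested at the minimum of 5 FPKM.

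Beside them, 16 tested CYP9E2 genes did not pass, among them some of the more abundant ones. RI129_010422 stood at 77.9, 60.5 and 57.9 FPKM in the luminous libraries and 75.3, 55.9 and 76.5 FPKM in the non-luminous ones, RI129_010424 at 64.2, 72.8 and 68.98 against 67.1, 53.2 and 58.3 FPKM. The libraries of the organs were interleaved in both genes, which does not show that the organs are equal (log2 differences -0.08, SE 0.17, and 0.21, SE 0.12). RI129_010057 was the most even, between 10.9 and 13.0 FPKM in all 6 libraries. RI129_010131 lay above in every luminous library, at 45.8, 53.6 and 56.7 FPKM against 42.4, 41.3 and 37.1 FPKM, and did not pass (0.36, SE 0.13, limma adjusted p = 0.0748). It was called without L1 and after median-of-ratios rescaling or quantile normalization (0.0364 to 0.221 over all alternatives).

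The table assigned KEGG pathways (steroid hormone synthesis, linoleic acid and retinol metabolism) to 13 of the 52 CYP9E2 genes. Of the 11 that were tested, 9 were lower (81.8%) and none higher, against 17.0% and 9.63% of all tested genes. At an unadjusted limma p under 0.05 the counts were 10 and none, and by voom 9 and none. The 11 genes had a median log2 difference of -1.41, and the difference nearest to 0 was -0.06. Of the 33 tested CYP9E2 genes with no KEGG pathway, 17 were lower (51.5%) and 2 higher (6.1%), at a median of -0.77. Without L3, N1, N2 and N3 in turn, the lower counts were 4, 4, 5 and 3 with a pathway and 11, 11, 12 and 10 without one. The difference between the 2 sets was not tested.

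Subfamily 6A, the largest of family 6, had 29 tested genes, at a median log2 difference of -1.13. Of these, 16 were lower (55.2%) and 1 higher (3.4%), against 17.0% and 9.63% of all tested genes. Without L3 the lower count was 6, and without N1, N2 and N3 it was 9, 6 and 5. Genes of 1 name went both ways, as the CYP6A2 genes did. In Drosophila, Cyp6a2 oxidises insecticides and is raised in some resistant strains. Of 8 tested genes of that name, 4 were lower and 1 was higher, with 1 lower without L3, N1, N2 or N3.

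The higher CYP6A2 gene, RI129_013104, was read at 6.46, 9.22 and 10.9 FPKM in the luminous libraries and at 2.08, 2.63 and 2.83 FPKM in the non-luminous ones. All luminous libraries lay above, by more than 2-fold at the nearest pair. The log2 difference was 1.47 (SE 0.23, limma adjusted p = 0.00553), the largest rise of the 93 tested genes on this scale, and it was called under all alternatives run.

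The abundant CYP6A2 genes went the other way. RI129_010836 stood at 137, 354 and 149 FPKM against 449, 502 and 496 FPKM (log2 difference -1.31, SE 0.34, limma adjusted p = 0.0266). RI129_010842 stood at 75.7, 257 and 105 FPKM against 388, 446 and 454 FPKM (-1.75, SE 0.40, adjusted p = 0.018). RI129_010834 stood at 27.7, 61.6 and 19.2 FPKM against 72.8, 81.5 and 84.5 FPKM (-1.28, SE 0.37, adjusted p = 0.0395). In all 3, L2 lay at more than 2-fold the other luminous libraries, yet under every non-luminous library. Each of these calls was lost when L3, N1, N2 or N3 was left out, and that of RI129_010834 in 9 alternatives in all (adjusted p up to 0.122, from 0.00162). The weak gene RI129_013088 was at 0.294, 0.288 and 0.466 FPKM against 7.61, 3.97 and 4.45 FPKM (-2.19, SE 0.28, adjusted p = 0.00288). Its call held under every alternative that tested it, 15 in all.

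CYP6A14 was the commonest 6A name, with 19 genes, of which 10 were tested. Of the 10, 8 were lower (80.0%) and none higher, against 17.0% and 9.63% of all tested genes. At an unadjusted limma p under 0.05 the counts were 9 and none, and by voom 8 and none. The lower count was 3 without L3 and 4, 3 and 2 without N1, N2 and N3. RI129_004904 headed them, at 8.87, 23.8 and 13.1 FPKM against 144, 107 and 185 FPKM. The organs lay more than 4-fold apart at the nearest pair (log2 difference -3.24, SE 0.34, limma adjusted p = 0.00169), and the call held under all alternatives. RI129_009713, the only tested CYP6A14 gene above 0, stood at 8.15, 13.1 and 18.2 FPKM against 9.76, 9.47 and 6.44 FPKM and did not pass (0.52, adjusted p = 0.228). Without L1 it was called higher (0.0432 to 0.537 over all alternatives).

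The most abundant 6A gene of the luminous organ, RI129_013109 (CYP6A1), was not called. The house fly protein of this name oxidises terpenoids and insecticides. It stood at 315, 327 and 354 FPKM in the luminous libraries and 263, 319 and 260 FPKM in the non-luminous ones, with overlap (log2 difference 0.25, SE 0.12, limma adjusted p = 0.178). The other tested CYP6A1 gene, RI129_013108, was lower, at 0.200, 3.36 and 1.09 FPKM against 4.84, 9.58 and 11.8 FPKM (-2.06, SE 0.50, adjusted p = 0.0227), a call lost without L3 and N2 and N3 (0.00724 to 0.0909).

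The remaining 6A names had few tested genes, beside 17.0% of all tested genes called lower and 9.63% called higher. The 1 tested CYP6A17 gene, RI129_001928, was lower (7.26 ± 2.63 against 27.3 ± 5.98 FPKM, SD, n = 3; log2 difference -1.81, limma adjusted p = 0.00486), and so was the CYP6A9 gene RI129_013107 (10.1 ± 4.15 against 24.3 ± 4.93 FPKM; -1.23, adjusted p = 0.018, lost without L3 and N2 and N3). In Drosophila, Cyp6a17 affects temperature preference. Of 4 tested CYP6A13 genes 1 was lower, RI129_007950, at 0.485 ± 0.307 against 3.71 ± 1.95 FPKM (-1.61, adjusted p = 0.0149). None of the 3 tested CYP6A23 genes was called by limma or by voom, with 1 higher and 1 lower at an unadjusted p under 0.05. The most abundant of them, RI129_006051, stood at 4.68, 14.4 and 14.9 FPKM against 21.1, 21.8 and 28.3 FPKM (-1.13, adjusted p = 0.069), without overlap, and was called without L1 (0.0312 to 0.2).

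All 3 genes of subfamily 6J were lower in the luminous organ, against 17.0% of all tested genes, at a median log2 difference of -2.16. RI129_007663 had the largest difference of the 93 tested genes on the log2(FPKM + 1) scale. It was read at 0.762, 1.04 and 0.631 FPKM in the luminous libraries and at 34.8, 16.3 and 49.99 FPKM in the non-luminous ones (log2 difference -4.13, SE 0.38, limma adjusted p = 0.000915). Its ratio of means was 41.6-fold, under that of RI129_010064 (49.5-fold). RI129_001929, among the 3 most abundant of all these genes in the non-luminous organ, stood at 51.5, 137 and 64.1 FPKM against 303, 361 and 384 FPKM (-2.16, SE 0.33, adjusted p = 0.00499). Both calls held under all alternatives, and the luminous libraries lay far under the others. RI129_007874 stood at 2.24, 7.65 and 2.22 FPKM against 10.1, 11.5 and 14.5 FPKM (-1.52, adjusted p = 0.0273). Its call was lost without any 1 library other than L2 (0.00182 to 0.103).

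Subfamily 6K, all described as CYP6K1, had 8 lower genes (47.1%) and none higher of 17 tested, against 17.0% and 9.63% of all tested genes. The median log2 difference of 6K was -1.06. At an unadjusted limma p under 0.05, 10 were lower and none higher, and by voom 9 and none. The lower count was 5 without N2 or N3. RI129_004296 stood at 22.9, 36.4 and 30.3 FPKM against 95.7, 118 and 119 FPKM (-1.87, SE 0.18, limma adjusted p = 0.00123), and RI129_009343 at 20.8, 35.3 and 20.8 FPKM against 84.6, 74.3 and 82.6 FPKM (-1.65, SE 0.21, adjusted p = 0.00288). The organs were more than 2-fold apart at the nearest pair for both, and both calls held under all alternatives. The most abundant 6K gene of the luminous organ, RI129_006353, was not among the lower genes, at 59.2, 80.8 and 111 FPKM against 101, 86.5 and 97.1 FPKM (-0.22, SE 0.22, adjusted p = 0.494), with overlap. The 1 gene of subfamily 6L, RI129_005376, lay at 0.516, 0.380 and 0.205 FPKM against 0.548, 0.492 and 0 FPKM, too low to be tested.

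Genes with consecutive identifiers often shared a subfamily name. The files give no gene positions, so the numbers stand only for the order of identifiers. With steps of at most 3 between members, 75 of the 125 genes fell into 11 runs of 3 or more. Some runs were uniform, beside 17.0% of all tested genes called lower and 9.63% called higher. The 9 genes from RI129_007867 to RI129_007875 (8 CYP9E2 and 1 CYP6J1) had 8 tested, all lower, between -2.34 and -1.19, although only 3, 5, 3 and 2 of them were called without L3, N1, N2 and N3 in turn. They summed to 21.7, 51.7 and 23.6 FPKM in the luminous libraries and 93.8, 103 and 130 FPKM in the non-luminous ones. The 3 CYP6K1 genes RI129_009324, RI129_009325 and RI129_009326 differed by -1.88, -1.44 and -1.33 on the log2 scale. The call of RI129_009325 was lost when L3, N1, N2 or N3 was left out, and with no filter on low values.

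Other runs were mixed. The longest held 24 CYP9E2 genes among 26 identifiers, RI129_010406 to RI129_010431. Of 20 tested, 1 was higher (RI129_010407, 5.0%), 9 were lower (45.0%) and 10 did not pass. Of all tested genes, 9.63% were higher and 17.0% lower. Differences within the run lay between -3.95 and 0.82. The lower count was 6 without L2, 5 without L3 and 4, 6 and 4 without N1, N2 and N3. Within it, RI129_010430 and RI129_010426, 4 identifiers apart, stood at 0.690 ± 0.178 and 43.0 ± 1.51 FPKM in luminous libraries and at 26.3 ± 9.62 and 49.6 ± 5.29 FPKM in non-luminous ones (SD, n = 3). Level and difference thus varied from gene to gene inside this run. Summed over its 24 genes, the luminous organ stood at 387 ± 49.4 FPKM and the non-luminous organ at 524 ± 75.5 FPKM.

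The 10 genes of RI129_013101 to RI129_013110, all of subfamily 6A, held the higher CYP6A2 gene RI129_013104 and the CYP6A1 gene RI129_013109, not called, together with 4 lower genes, of 6 tested. Lower were 66.7% and higher 16.7% of the 6, against 17.0% and 9.63% of all tested genes. The 4 lower calls fell to 3 without N1 and to 0 without L3, N2 or N3. At an unadjusted limma p under 0.05, with all libraries, 4 were lower and 1 higher, and voom called the same numbers. RI129_013110 (CYP6A14) stood at 6.03, 17.2 and 10.2 FPKM against 25.1, 29.3 and 34.5 FPKM (-1.43, SE 0.33, limma adjusted p = 0.0186, 0.00414 to 0.0773 over all alternatives). Since RI129_013109 outweighed the rest, the run summed to 377 ± 28.9 and 368 ± 37.8 FPKM, less than 1 SD apart (n = 3).

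**Figure D4:**
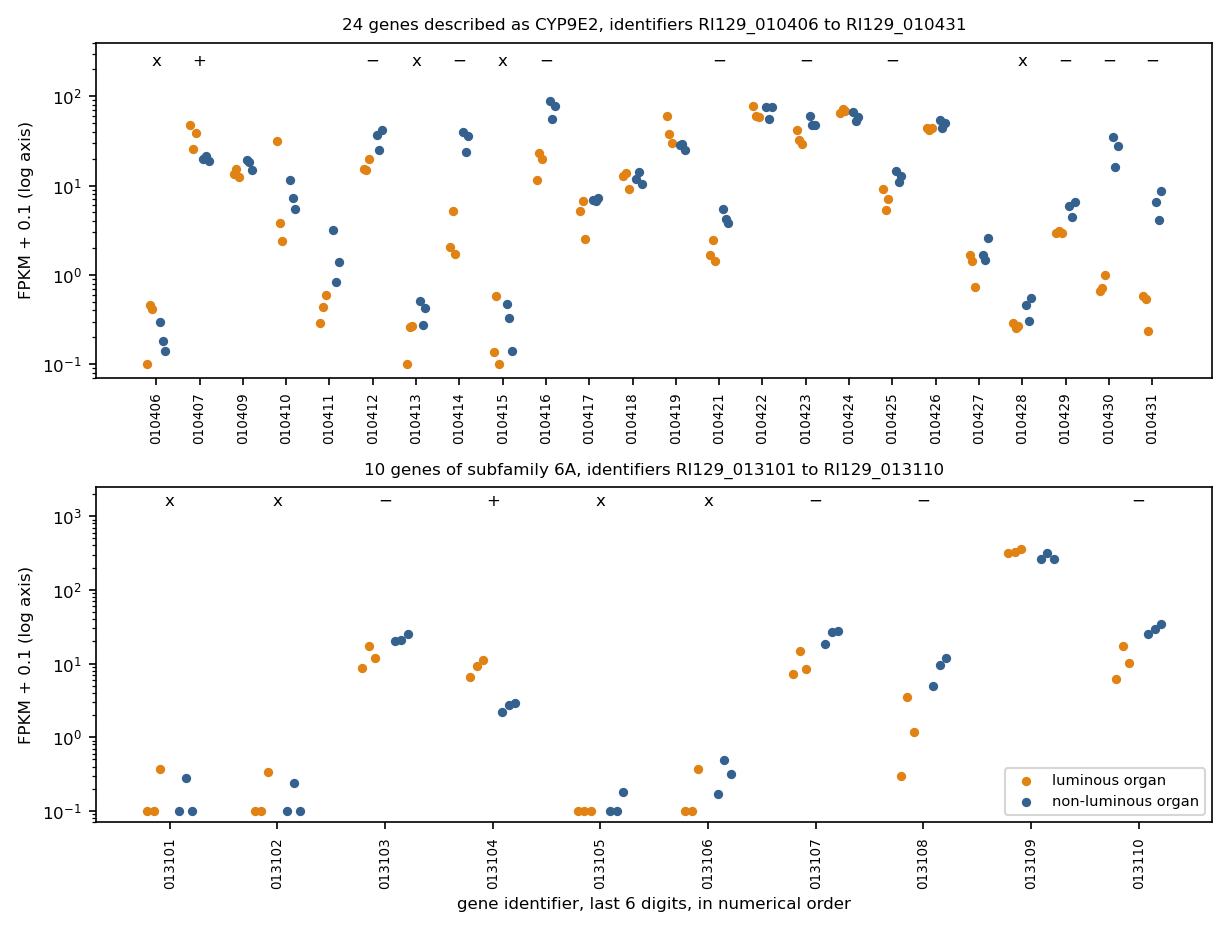
FPKM + 0.1 (log axis) of the genes in 2 runs of neighbouring identifiers, with 1 point for each luminous and non-luminous library; plus and minus mark genes called higher and lower by limma, x marks genes not tested, and no mark means not called. In the upper run RI129_010407 is higher, RI129_010422, RI129_010424 and RI129_010426 are near level, RI129_010423 and RI129_010425 are lower and RI129_010430 is far lower. In the lower run RI129_013104 is higher and RI129_013109 near level.

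The luminous libraries were not alike. L2 was the highest of the 3 for 35 of the 49 tested family 6 genes (71.4%) and for 20 of the 44 tested family 9 genes (45.5%), against 34.4% of all tested genes. Set against the non-luminous mean on the log2(FPKM + 1) scale, the median difference of the family 6 genes was -1.55, -0.54 and -1.45 in L1, L2 and L3. That of the family 9 genes was -1.02, -0.77 and -1.19. All 3 replicates thus lay below, and replicate 2 was the nearest. Without L2, limma called 52 of the 93 genes lower and 2 higher, against 1698 and 920 of all tested genes. The median difference of the 93 genes was then -1.37.

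Marker lists of other tissues that a dissected organ could hold were counted too, beside 17.0% of all tested genes called lower and 9.63% called higher. The fat body list had 4 tested genes of 5, of which 3 were lower and 1 higher. Its 3 apolipophorin genes, which encode lipid carriers of the hemolymph, were the lower ones, with RI129_002038 at 46.4, 103 and 65.3 FPKM against 156, 169 and 161 FPKM (log2 difference -1.24, limma adjusted p = 0.0139, lost without N3). L2 was again the highest of the luminous libraries. Without N3, 0 of the 3 apolipophorin genes were called, and without L3, N1 or N2 there were 2. Its hexamerin, a storage protein (RI129_012781), was higher in the luminous organ, at 64.0, 65.5 and 33.8 FPKM against 12.6, 14.5 and 18.3 FPKM. The list summed to 171 to 309 FPKM in the luminous organ and 363 to 379 FPKM in the non-luminous organ, with no gene at 0 in any library.

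The midgut list of 112 genes had 31 lower (47.0%) and 4 higher (6.1%) of 66 tested, against 17.0% and 9.63% of all tested genes. It summed to 2066 to 3179 FPKM against 6578 to 8310 FPKM. Of its genes, 30 to 35 were at 0 in a luminous library and 8 to 15 in a non-luminous one, and chymotrypsin BI (RI129_002540) stood at 1.63, 0.370 and 0.332 FPKM against 3614, 2647 and 4140 FPKM. Peritrophin-1 (RI129_000481), a chitin-binding protein of the gut lining, went the other way, at 154, 137 and 282 FPKM against 64.4, 66.6 and 60.0 FPKM (log2 difference 1.5, SE 0.25, limma adjusted p = 0.00707, called under all alternatives). The higher count of this list was 2 without L3, N1 or N2 and 1 without N3. The Malpighian tubule and urate list had 4 lower genes of 8 tested and summed to 467 to 727 FPKM against 1316 to 1798 FPKM, with none at 0. Oenocyte, muscle and nervous tissue lists had more higher than lower genes (4 and 1 of 8, 7 and 1 of 13, 3 and 2 of 12), and the hemocyte list 2 and 1 of 22. These small counts moved with single libraries. The oenocyte list, which held only family 4 genes described as cytochrome P450 4g, had 2 higher genes without N3. It had none lower without L2, L3, N1, N2 or N3. The nervous tissue list had 2 higher without L3, N1, N2 or N3 and 1 lower without any 1 library but L1, and muscle had 2 lower without L1. The hemocyte list had 6 higher without L1 and 1 without any other library, and none lower without any 1 library but L2. The part of these tissues in the P450 differences was not tested.

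**Figure D5:**
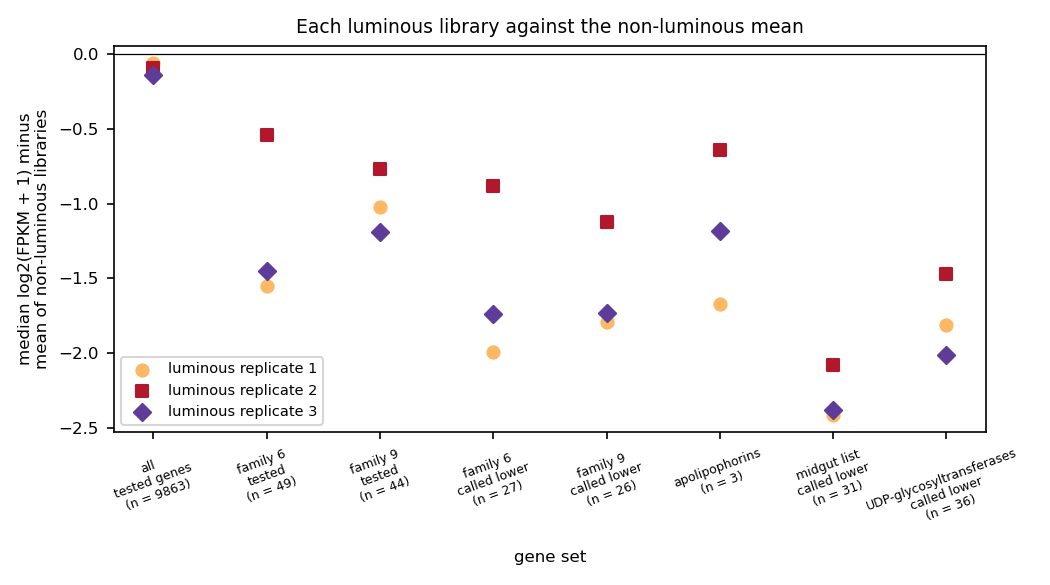
Median difference (vertical axis) of log2(FPKM + 1) in L1, L2 and L3 from the mean of the 3 non-luminous libraries, for sets of n genes (horizontal axis). Sets marked as called lower were chosen on these libraries. Replicate 2 is the nearest to 0 in every set but all tested genes, by the widest margin in the tested genes of family 6 (-0.54 against -1.55 and -1.45).

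The other P450 families and the genes that work with them were counted from lists of names. Beside them, limma called 17.0% of all tested genes lower and 9.63% higher. P450 genes outside families 4, 6 and 9 had 16 lower (51.6%) and 1 higher (3.2%) of 31 tested, at a median log2 difference of -1.04. Family 4, which holds fatty acid hydroxylases and the Cyp4g enzymes of cuticular hydrocarbon synthesis, had 7 lower and 4 higher of 28, at a median of -0.05. All 4 higher genes, and 1 of the 7 lower ones, were Cyp4g genes already counted in the oenocyte list. Without L3, N1, N2 and N3 in turn, the lower counts were 8, 7, 7 and 7 for the first set and 4, 3, 2 and 2 for family 4. The higher count of family 4 was 7 without L1 and 2 without N3, and that of the first set was 0 without L3, N1 or N3. The difference of these sets from families 6 and 9 was not tested. No gene described as NADPH-cytochrome P450 reductase was matched, so the main electron donor was not analysed here.

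Of the genes described as cytochrome b5, another electron donor, RI129_000743 was the most abundant, at 95.2, 161 and 103 FPKM in the luminous libraries and 170, 221 and 183 FPKM in the non-luminous ones (log2 difference -0.70, SE 0.21, limma adjusted p = 0.0451). The organs came close at L2, and the call was lost without L1, L3, N1, N2 or N3 and in 9 of 16 alternatives in all (0.00601 to 0.14). RI129_004719 (1.79 ± 0.456 against 7.46 ± 2.47 FPKM, SD, n = 3; -1.58, adjusted p = 0.00688) and RI129_004247 (0.224 ± 0.290 against 1.84 ± 0.777 FPKM; -1.20, adjusted p = 0.0341) were lower, the second lost in 6 alternatives, among them those without L1, L3, N1 or N3. RI129_007461 was at 28.6 ± 17.7 and 26.1 ± 4.83 FPKM and was not called (limma adjusted p = 0.987).

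Of all 18 tested genes of the electron donor list, 10 were lower (55.6%) and 1 was higher (5.6%), at a median of -0.86. The lower count was 5, 3, 5 and 2 without L3, N1, N2 and N3 in turn. Limma called 17.0% of all tested genes lower and 9.63% higher. The list includes b5 reductases, adrenodoxin genes and genes described as cytochrome b5-related. The last were matched by name only, and whether they pass electrons to a P450 is not known here. They supplied 7 of the 10 lower calls and the 1 higher call. The 8 cytochrome b5-related genes from RI129_010391 to RI129_010398 stand before the long CYP9E2 run in the order of identifiers. Like that run they were mixed, with 7 lower and RI129_010398 higher, at 57.3, 55.6 and 62.7 FPKM against 38.3, 46.3 and 42.4 FPKM (0.46, SE 0.12, adjusted p = 0.028, lost in 4 alternatives, among them those without L3, N1 or N3). RI129_010392 had the largest difference, at 1.18, 6.32 and 3.57 FPKM against 15.5, 13.7 and 13.5 FPKM (-1.86, adjusted p = 0.0156, lost when N1, N2 or N3 was left out).

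Heme, the cofactor of every P450, is made by a pathway of several enzymes. ALAS2 (RI129_012644), which encodes its first enzyme, 5-aminolevulinate synthase, stood at 172, 222 and 223 FPKM against 473, 371 and 607 FPKM. The organs did not overlap (log2 difference -1.21, SE 0.20, limma adjusted p = 0.00617). FeCh (RI129_000785, ferrochelatase) differed by -0.55, with its call lost when any 1 library other than L1 was left out (limma adjusted p up to 0.0983), and the uroporphyrinogen-III synthase gene did not pass.

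Enzymes that conjugate or cleave the same kinds of substrate were also lower more often than higher. Limma called 17.0% of all tested genes lower and 9.63% higher. UDP-glycosyltransferases, which add sugars, had 36 lower (62.1%) and 2 higher (3.4%) of 58 tested, at a median log2 difference of -1.26. Carboxylesterases had 16 and 2 of 28 (57.1% and 7.1%, median -1.16) and glutathione S-transferases 14 and 3 of 34 (41.2% and 8.8%, median -0.75). Without N3, these lower counts were 25, 9 and 8, and without L3 or N2 that of the glutathione S-transferases was 9. Their higher count was 1 without N1 and 0 without N2 or N3, that of the UDP-glycosyltransferases was 1 without any 1 library but L1, and that of the carboxylesterases was 1 without N1 or N3. The largest difference per list and direction was UGT5 (RI129_000623, -3.20) and UTG2 (RI129_007037, 1.45), the carboxylesterase genes RI129_007811 (-3.16) and RI129_000315 (1.33), and GstD1 RI129_006451 (-5.81, with no read in any luminous library) and GstD1 RI129_008534 (1.65, lost in 7 alternatives, among them those without any 1 library but L2). Efflux transporters of the ABC type had 14 lower (25.9%) and 7 higher (13.0%) of 54 at a median of -0.18. They had 9, 8 and 8 lower without L3, N1 and N3 and 4 higher without any of these 3. The differences between these lists were not tested. Their largest differences were RI129_004306 (described as a multidrug resistance-associated protein, -3.23) and Abcc4 (RI129_005277, 2.57).

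The known regulators of xenobiotic response did not differ detectably. Of the genes for cnc, Keap1, MafK, the aryl hydrocarbon receptor and its partner tango, 5 were tested, and limma called none, with none at an unadjusted p under 0.05 and none by voom. Their adjusted p lay between 0.446 and 0.659 and their median difference was -0.15.

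Some P450 genes varied widely within an organ. RI129_010410 (CYP9E2) stood at 31.3, 3.67 and 2.29 FPKM in the luminous libraries, against 11.4, 7.24 and 5.41 FPKM in the non-luminous ones. RI129_013226 (CYP6A2) stood at 0.578, 28.8 and 7.95 FPKM against 3.11, 4.23 and 45.7 FPKM. RI129_009601 (CYP9E2) had 7.89, 0.467 and 0 FPKM against 4.88, 7.98 and 14.1 FPKM. None of these passed the test (limma adjusted p = 0.921, 0.831 and 0.105). Without L1, the single high library of RI129_010410 and RI129_009601, both were called lower (0.0364 to 0.973 and 0.00391 to 0.28 over all alternatives).

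The 32 genes under the filter, 24 of family 6 and 8 of family 9, were weak in both organs. Each had a value above 0 in at least 1 library, 14 in all 6 libraries and 6 in fewer than 3. The highest single value was 2.81 FPKM, in the CYP9E2 gene RI129_010066. In 10 of the 32 all luminous libraries lay below all non-luminous ones, against 10.9% of the 2670 genes of the table under the filter, and in none above, against 3.93%. No gene of the 125 was at 1 FPKM or more on average in 1 organ with no read in the other.

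The genes shared their annotation more than their levels. All 125 carried the Gene Ontology terms for heme binding, iron ion binding and the endoplasmic reticulum membrane, and 122 that for monooxygenase activity. The terms for response to DDT and response to caffeine were on 9 genes each, all of family 6. Gene lengths worked out from the FPKM steps were available for 119 of the 125, and 109 of them were multiples of 3, as coding lengths are. Their median was 1509 bases, the quartiles were 1464 and 1554 bases, and 18 were under 1200, among them RI129_010422 (798) and RI129_006353 (1167).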

How the data were processed

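Messenger RNA was sequenced from 3 luminous and 3 non-luminous organ libraries, made with a stranded kit per the labels' protocols. The authors deposited FPKM values for 12533 genes, with descriptions and annotation terms. Trimmomatic, HISAT2, HTSeq and R 3.2.0 are named, with no role, in the submitters' processing notes. The genome build, gene positions, annotation and strand setting were not given in the sources used here. Columns were matched to samples by library name, and 0 value columns were left without a sample. Depth was worked out from the steps between low FPKM values: reads came out within 0.002 of whole numbers for 99.99% of the 11795 genes above 0 in 3 or more libraries. Depth limits precision for counting error only.

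The log2(FPKM + 1) values of the 9863 genes averaging 1 FPKM or more were fitted with limma 3.58.1 (R 4.3.3; two-sided, trended eBayes, no block), with Benjamini-Hochberg adjustment over all of them and a threshold of 0.05. Both steps were tested on simulated data. The voom alternative used the recovered reads. The P450 genes and the gene lists were chosen with earlier results of these data known, and lists were matched by words in descriptions. Named genes were the 5 most abundant of each organ, every gene called higher, the 12 largest differences among lower genes without overlap, the most abundant gene of each subfamily, and examples of 1 description called in opposite directions. For each pathway list, the largest called difference per direction and every cytochrome b5 were named. Further genes, such as abundant genes not called, those with 1 deviating library and members of runs, were chosen after their values were seen. No sequences were used. The counts of the heme synthesis list are not reported here. Alternatives were other pseudocounts (0.1 and 5), minimum means of 0.1 and 5 FPKM or none, 2 rescalings, no trend, a replicate block, voom and each library left out in turn.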

Additional observations from a re-analysis of the deposited data

How the results depend on the processing

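With 1 library left out in turn, the P450 genes called lower ranged from 25 to 52 and those called higher from 1 to 6. Lower by at least 2-fold ranged from 24 to 51 and higher by at least 2-fold from 1 to 3. Family 6 had 12 to 30 lower and 1 to 3 higher, and family 9 had 13 to 27 lower and 0 to 3 higher. All tested genes ranged from 757 to 1698 lower and 362 to 954 higher, and the median log2 difference of the 93 genes from -1.367 to -0.990. Quantile normalization gave 5 P450 genes higher (2 of family 6), 1480 of all genes higher, a median of -0.821 over the 93 genes, and 0.074 over all genes. A pseudocount of 5 gave 29 lower and 1 higher by at least 2-fold and a median of -0.647. The median was -0.723 with no filter and -1.334 with voom. Fewer libraries, another scale or more weak genes are part of these settings, and the cause of the other shifts was not tested.

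Same-numbered libraries correlated at -0.111, -0.009 and -0.166 in their deviations from the organ means, and libraries of other numbers at -0.064 to 0.207. With 3 libraries per organ, such values cannot show whether the organs came from the same animals. With the replicate block, 48 P450 genes were lower and 1 was higher (1 by at least 2-fold), with 0 of family 9 higher.

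Directions of genes that did not pass turned as follows. RI129_006353 ranged from -0.45 to 0.00 with a library left out. RI129_010057 came to 0.03 after median-of-ratios rescaling, 0.13 after quantile normalization and -0.11 to 0.01 with a library left out, and RI129_010422 to 0.02, 0.02 and -0.22 to 0.00. RI129_010410 came to 0.05 with a pseudocount of 5, 0.08 after quantile normalization and -1.15 to 0.50 with a library left out. RI129_013226 ranged from -1.41 to 0.70 with a library left out. RI129_007461 came to 0.00, 0.09 and 0.14 under the pseudocount of 5 and both rescalings, and -0.47 to 0.29 with a library left out.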
